A study of Drosophila melanogaster with 2 samples.

Results

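The 982 peaks described here had their summit at a head-to-head promoter pair of protein-coding genes, and they made up 14.0% of the 7025 peaks in the deposited list of reproducible peaks. A peak was included when its summit lay within 500 bp of a start of a minus-strand protein-coding gene and within 500 bp of a start of a plus-strand protein-coding gene, with the minus-strand start at the lower coordinate, so that both genes are read away from the space between them. Transcription starts came from Ensembl release 115 (BDGP6.54), whose coordinates are those of the dm6 build used in the deposited lists. The rule used positions only and no measured signal. By the closest starts, the 982 peaks fell on 892 distinct pairs. The remaining peaks were 3109 at other protein-coding promoters, with a summit within 500 bp of a start but not of such a pair, and 2934 with no protein-coding start within 500 bp.

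The series holds chromatin immunoprecipitation sequencing (ChIP-seq) libraries from Drosophila melanogaster embryos of the transgenic CG34376-GFP line, which carries CG34376 joined at its C-terminus to GFP. Embryos of mixed sex were collected whole at 0 to 24 h of age, and the antibody field of the labels names CG34376. There was 1 group with 2 libraries, replicates 2 and 3, which share 1 donor line, were sonicated to 200 to 800 bp and name the same control experiment. The labels call the assay a transcription factor ChIP-seq, while a free-text line in the same labels calls each library an input control, so the text below speaks of peaks and signal and not of binding by the fusion protein. Whole embryos mix tissues and stages, and cells with and without a peak cannot be told apart. No wild-type or untagged group was analysed here, so the comparisons below are between classes of peaks and genes within these libraries.

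Each replicate came with 30000 candidate peaks, as did the pool of both. The signal printed below is the authors' own value per peak from the pooled list, in their units, and the depth behind it is unknown. Replicate values are those of the replicate's strongest candidate with a summit within 100 bp of the peak's summit, each on that library's own scale. Where a count is given for a replicate alone, it is over its own 7025 strongest candidates. With 2 libraries of 1 group, differences were described against the spread between replicates and no test was made.

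In flies, many neighbouring genes are arranged head to head, with their transcription starts close together and a shared stretch of open chromatin between them. Such pairs are known for genes expressed in most cells, whose promoters often carry the DNA replication-related element (DRE), Motif 1 and the Ohler elements rather than a TATA box. The DRE is recognised by the factor DREF, Motif 1 by M1BP, and the short CGATA core inside the DRE also occurs in the sites of the insulator protein BEAF-32.

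The bases between both starts are shown for 8 pairs, read 5′ to 3′ on the plus strand of the RefSeq Release 6 (dm6) reference. The first 4 are the strongest peaks with a summit between starts that lie 40 to 300 bp apart, and the other 4 are the strongest such peaks whose bases hold a DRE and a GATA hexamer, Motif 1, a GAGA repeat, or Ohler 6. The gene named first lies to the left on the minus strand, and the gene named second starts just to the right on the plus strand. Capitals mark matches on either strand to the DRE (TATCGATA), the GATA hexamer (WGATAR), the GAGA repeat (GAGAGAG), the E-box (CAGCTG), Motif 1 or Ohler 6, and a match describes the letters only. The space between Art3, an arginine methyltransferase, and mRpS10 spans 256 bases at chr3R:15229409-15229664, with the summit at base 114. That between CG13390 and CG17294 spans 237 bases at chr2L:8376798-8377034, with the summit at base 95 and an E-box at its far right end. The Tcs5 and CHMP2B space spans 223 bases at chr3L:5139396-5139618, with the summit at base 94. The CG3437 and CG3552 space spans 242 bases at chr3L:9457670-9457911, with the summit at base 142. The space between Atat, an alpha-tubulin acetyltransferase, and Shc, an adaptor of receptor tyrosine kinases, spans 251 bases at chr3L:9426759-9427009, with the summit at base 92. The Ripalpha and RpL7 space spans 125 bases at chr2L:10200975-10201099, with the summit at base 79. The ntc and IntS10 space spans 250 bases at chr3L:3806460-3806709, with the summit at base 82. The RpS25 and CG4820 space spans 247 bases at chr3R:11216288-11216534, with the summit at base 49, next to the DRE.
Art3/mRpS10: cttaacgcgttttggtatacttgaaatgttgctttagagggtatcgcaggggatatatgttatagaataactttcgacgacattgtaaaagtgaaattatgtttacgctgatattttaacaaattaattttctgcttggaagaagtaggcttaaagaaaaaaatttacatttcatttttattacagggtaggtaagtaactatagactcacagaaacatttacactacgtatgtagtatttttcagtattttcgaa
CG13390/CG17294: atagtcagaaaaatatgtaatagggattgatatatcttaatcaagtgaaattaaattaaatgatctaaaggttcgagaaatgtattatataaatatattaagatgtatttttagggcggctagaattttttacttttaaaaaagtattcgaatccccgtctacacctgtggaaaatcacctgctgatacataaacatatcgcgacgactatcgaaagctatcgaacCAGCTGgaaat
Tcs5/CHMP2B: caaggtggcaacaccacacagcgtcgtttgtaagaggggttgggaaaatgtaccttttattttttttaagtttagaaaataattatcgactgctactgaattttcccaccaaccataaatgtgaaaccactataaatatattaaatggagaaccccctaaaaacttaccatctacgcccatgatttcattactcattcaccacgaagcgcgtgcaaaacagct
CG3437/CG3552: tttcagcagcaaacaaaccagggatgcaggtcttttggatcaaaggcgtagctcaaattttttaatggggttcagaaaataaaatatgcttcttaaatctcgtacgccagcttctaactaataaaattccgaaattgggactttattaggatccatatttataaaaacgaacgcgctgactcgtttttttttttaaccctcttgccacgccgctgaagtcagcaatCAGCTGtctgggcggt
Atat/Shc: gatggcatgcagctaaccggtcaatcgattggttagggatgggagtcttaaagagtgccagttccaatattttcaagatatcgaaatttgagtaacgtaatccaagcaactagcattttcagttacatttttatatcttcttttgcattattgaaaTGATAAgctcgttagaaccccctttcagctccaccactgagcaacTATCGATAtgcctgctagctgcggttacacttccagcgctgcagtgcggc
Ripalpha/RpL7: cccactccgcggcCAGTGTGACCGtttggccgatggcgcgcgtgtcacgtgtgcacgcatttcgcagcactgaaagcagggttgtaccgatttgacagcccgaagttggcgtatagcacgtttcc
ntc/IntS10: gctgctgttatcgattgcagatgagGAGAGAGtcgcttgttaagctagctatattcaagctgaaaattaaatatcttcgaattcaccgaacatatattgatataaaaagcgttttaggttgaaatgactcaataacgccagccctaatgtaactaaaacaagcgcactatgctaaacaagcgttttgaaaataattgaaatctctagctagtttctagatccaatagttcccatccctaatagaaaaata
RpS25/CG4820: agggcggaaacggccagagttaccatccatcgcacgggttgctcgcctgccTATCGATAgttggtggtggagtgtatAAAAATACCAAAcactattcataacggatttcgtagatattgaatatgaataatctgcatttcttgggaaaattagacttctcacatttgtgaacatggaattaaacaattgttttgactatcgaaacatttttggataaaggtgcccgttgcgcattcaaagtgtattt

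None of the capital matches lies in the Art3/mRpS10 or Tcs5/CHMP2B sequences. The CGATA core alone, which is not marked by capitals, lies within 100 bp of the summit in both. The RpS25/CG4820 sequence holds a DRE and an Ohler 6 element within a short stretch on the RpS25 side. The Atat/Shc sequence holds its DRE toward Shc, away from the summit, and its GATA hexamer between the summit and the DRE.

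Head-to-head pairs were common sites of peaks. The annotation holds 2667 pairs of protein-coding genes with minus and plus starts at most 1000 bp apart, and 970 of them (36.4%) had such a peak. The share was 32.9% in replicate 2 alone and 37.1% in replicate 3 alone. Both genes had a summit within 500 bp of a start in 1051 pairs, 1 gene in 358 and neither in 1258. Of the 1697 pairs without a head-to-head peak in the reproducible list, 772 had a head-to-head pooled candidate and 925 had none.

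Genes in head-to-head pairs had a peak more often than other genes. Over all 13945 protein-coding genes, 30.1% had a summit within 500 bp of a start. Among the 5052 genes in head-to-head pairs 2311 did, 45.7% (95% Wilson interval 44.4 to 47.1), against 1880 of the 8893 other genes, 21.1% (20.3 to 22.0). In the replicates taken alone the share was 44.5% ± 1.83 (SD, n = 2) for paired genes and 20.8% ± 0.382 (SD, n = 2) for the others, so the difference was far larger than the spread between replicates. A summit between close starts counts for both genes at once, which bears on this comparison. The Wilson intervals here and below cover counting error only, and neighbouring peaks and genes are not independent draws.

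Candidates at pairs also passed into the reproducible list more often. Of all 30000 pooled candidates 23.4% were in it. At head-to-head pairs 982 of 2262 were, 43.4% (41.4 to 45.5), against 33.1% of 9386 at other protein-coding promoters and 16.0% of 18352 with no protein-coding start nearby. The reproducible list held the 7025 pooled candidates of highest signal, so these shares also compare strength. Over all pooled candidates the median signal was 141 at head-to-head pairs, 111 at other protein-coding promoters and 67.1 with no protein-coding start nearby.

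Among the peaks above that signal limit, the classes were close in median signal. The median was 248 at head-to-head pairs (quartiles 198 and 355), 255 at other protein-coding promoters and 249 where no protein-coding start was near. When the 7025 strongest candidates of each replicate were ranked, the median member stood at the percentile 50.7 ± 0.649 (SD, n = 2), and the median peak at other promoters at 51.2 ± 0.166 (SD, n = 2), a gap no larger than the spread between replicates. Of the 100 strongest peaks of the whole list, 21 were at head-to-head pairs, which made up 14.0% of the list, and 3 were among the strongest 20. The highest candidates of both replicates overlapped 82.5% of the member peaks, against 84.2% at other promoters, and 8 member peaks were overlapped by those of neither replicate.

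The strongest peak, with a signal of 2065, lay midway between Pdrg1 and Pal1, a lyase of peptide amidation. Its signal was 1149 in replicate 2 and 914 in replicate 3, and its summit stood 174 bp from the Pdrg1 start and 172 bp from the Pal1 start. The next, at CG11309/CG7632 (1939), was inside CG11309, 75 bp past its start, where the starts were 39 bp apart. It had 1050 in replicate 2 and 899 in replicate 3. The Art3/mRpS10 peak had 1683 in the pool, 827 in replicate 2 and 850 in replicate 3. The RpS27/Nup37 peak, between a ribosomal and a nuclear pore gene, had 1581, with 723 in replicate 2 and 862 in replicate 3, and its summit was 12 bp inside RpS27. These 4 were ranked 42 or higher in each replicate.

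The 20 strongest peaks that both replicates placed within 100 bp ran from 1106 to 2065. Their replicate summits lay at most 37 bp apart, and 17 of the 20 summits were between the starts. Chro, a chromodomain protein of chromosomes and the spindle, is paired with Ssl1, a subunit of the general transcription factor TFIIH, and its peak had 1491. Acbp1 and the mechanosensitive channel gene Piezo shared a peak of 1443, 213 bp from the Piezo start. The peak of Tcs5 and CHMP2B, an ESCRT-III protein, had 1312. Hrd3, of endoplasmic reticulum degradation, and the mitochondrial phosphatase PTPMT1 shared one of 1238. The peak of Pax, the fly paxillin, and the alkaline phosphatase gene Alp12 had 1187. The gene of DREF itself, Dref, is paired with RpL13 at a distance of 84 bp, and the peak between them had 1135, with 579 in replicate 2 and 542 in replicate 3. Among the 20 were 6 with a cytosolic and 2 with a mitochondrial ribosomal protein gene.

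**Figure D1:**
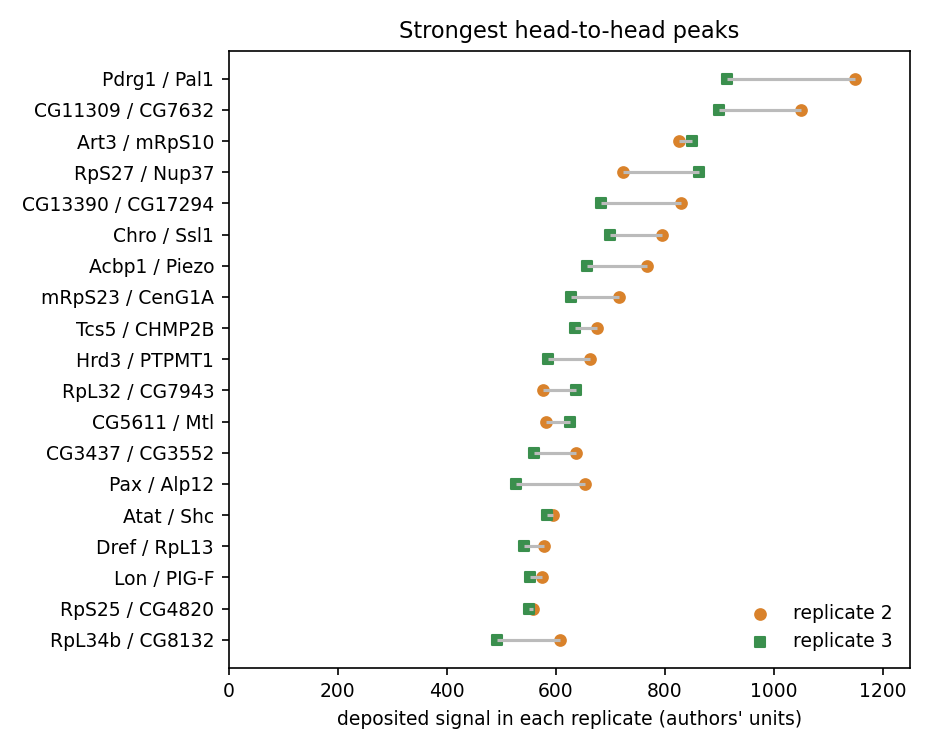
Deposited signal (authors' units, each replicate on its own scale) of 19 of the 20 strongest head-to-head peaks in replicate 2 (circles) and replicate 3 (squares), joined by a line. Pdrg1/Pal1 (1149 and 914) and CG11309/CG7632 (1050 and 899) are the highest in both replicates.

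At the weak end, the last member was velo/Sbds with 162.91, at the bottom of the reproducible list, and the strongest pooled candidate at a pair that fell outside the list was ATPsynF/CG3548 with 162.85. At the distance limit, the Mvk/Iswi summit was 500 bp from the farther start and inside the rule, and the l(2)k09848/CG7849 summit was 502 bp away and outside it.

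Member summits lay mostly in the space between the starts. This held for 661 of 982 (67.3%, 64.3 to 70.2), while 163 lay inside the minus-strand gene and 158 inside the plus-strand gene. In replicates taken alone the share between was 68.6% ± 2.48 (SD, n = 2). For scale, of the positions the rule allows around each pair, 39.6% on average were between the starts. The median summit was 68 bp from the nearer start and 205.5 bp from the farther one, and 128 summits were within 100 bp of both. Neither strand was favoured by far, with 464 summits nearer the minus-strand start and 517 nearer the plus-strand start.

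Compared with other promoters, the summit was closer to a start. The median distance to the nearest start was 68 bp for members and 108 bp for peaks at other protein-coding promoters, and 67.2% of member summits against 60.5% were upstream of it. Members have a start on each side, which by itself shortens this distance. In 917 members both candidate lists had a summit within 100 bp of the pooled one. The replicate summits lay a median of 22 bp apart in these, and 25 bp at other protein-coding promoters. The same start was nearer in both replicates in 807 of the 917 (88.0%). Where the distances to both starts differed by over 50 bp, that share was 95.4%. The limit of 100 bp fixes part of this agreement in advance, as a summit far from the middle of the pair cannot change sides within it.

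**Figure D2:**
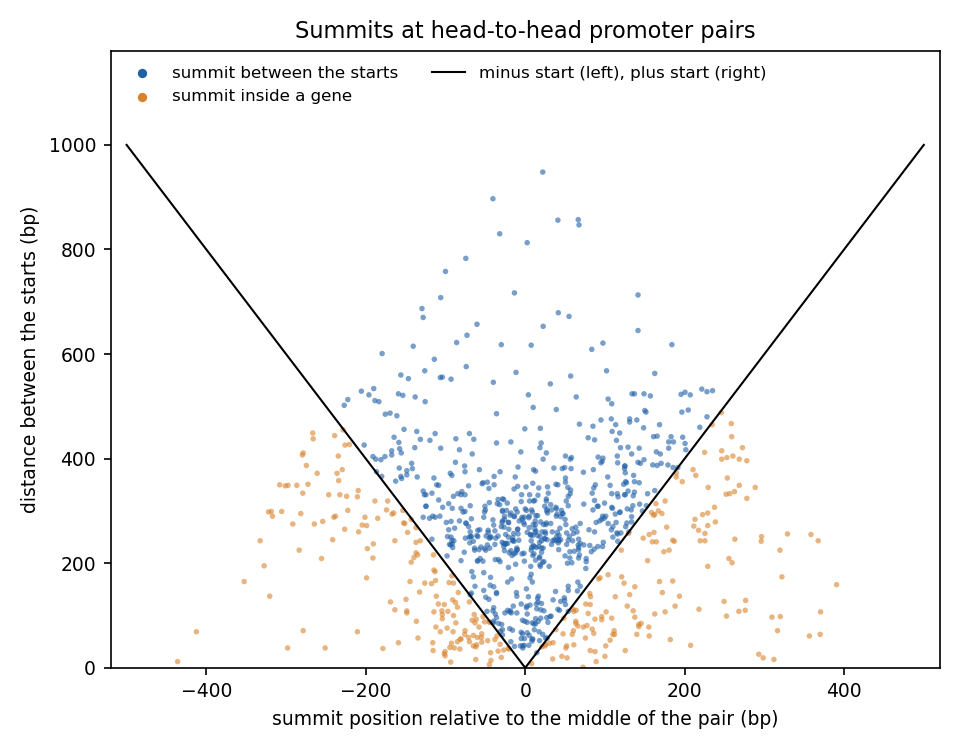
Each point is 1 of the 982 member summits, placed by its distance from the middle of the pair (bp, plus-strand gene to the right) and by the distance between the starts (bp). The lines mark the starts. Summits between them (661, blue) crowd the middle at 200 to 300 bp, and those inside a gene (321, orange) lie mainly where the starts are close.

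The distance between starts was 260 bp in the median member and 301 bp over all pairs in the annotation. The share of pairs with a peak was highest at 201 to 300 bp, 55.5% (51.3 to 59.7) of 542 pairs, and it was 48.5% (43.8 to 53.2) at 1 to 100 bp, 40.1% (35.1 to 45.2) at 101 to 200 bp and 39.4% (35.8 to 43.2) at 301 to 500 bp. Both replicates alone gave their highest share in the same class, 49.8% in replicate 2 and 55.7% in replicate 3. Pairs 501 to 1000 bp apart had a peak in 8.18%, where the rule leaves only a narrow stretch within reach of both starts. That stretch shrinks steadily with spacing over all classes, which bears on these shares and on the median of 260 bp. The median signal was between 237 and 260 in every class.

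The summit moved into the shared space as it widened. It was between the starts in 27.5% of members at 1 to 100 bp, 50.7% at 101 to 200 bp, 76.6% at 201 to 300 bp and 80.1% at 301 to 500 bp. The shares that the allowed positions alone would give were 6.54%, 16.4%, 34.4% and 61.4%. Beyond 500 bp the rule admits no other place.

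**Figure D3:**
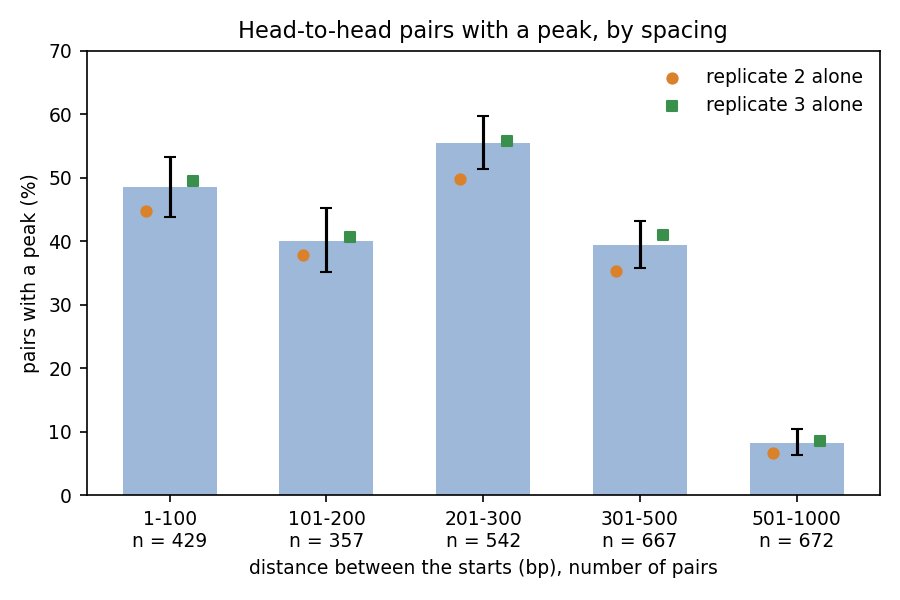
Share of annotated head-to-head pairs with a peak (%, bars, with 95% Wilson intervals) by distance between the starts (bp), with the value in each replicate alone (circles and squares). The 201 to 300 bp class is highest at 55.5%, and pairs over 500 bp apart are lowest at 8.18%.

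Most pairs had 1 summit. Of the 892 pairs, 804 had 1 and 88 had 2 or more, and 2 had 3. Summits of 1 pair of genes spanned 199 to 2483 bp, with a median of 204.5 bp, close to the smallest spacing seen. The widest span joins summits at different annotated starts of the same genes, not at 1 shared space. Separate intervals were seen in 75 of the 88 pairs. Strong pairs with 2 summits were RpL32/CG7943 (1215 and 649, both between the starts and in 1 interval) and CG3437/CG3552 (1195 and 211, in separate intervals, the second inside CG3552).

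Among chromosome arms, the share of pairs with a peak was lowest on X and on chromosome 4. From 35.0% to 39.6% of the pairs on the large autosome arms had a peak, against 30.5% (26.2 to 35.2) of 403 on X. The X interval overlapped those of 2L (31.9 to 40.2) and 2R (31.1 to 39.1), but not those of 3L and 3R. On chromosome 4 the count was 2 of 11, with an interval of 5.14 to 47.7 that overlapped those of all other arms. The strongest peak on X was at Tsp3A/Seipin (924), a tetraspanin and a lipid droplet protein, and on chromosome 4 at Tdg/Pur-alpha (304).

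The sequence around the summits differed from that at other promoters. Within 100 bp on either side of the summit, the DRE was present in 115 of 982 members, 11.7% (9.85 to 13.9), and in 106 of 3109 peaks at other protein-coding promoters, 3.41% (2.83 to 4.11). The replicates gave 11.9% ± 1.84 (SD, n = 2) and 3.42% ± 0.659 (SD, n = 2). Windows of the same length on all 19252 protein-coding starts held it in 6.45%. Its core CGATA, which every DRE contains, was in 49.7% of members, 36.5% of other promoter peaks and 37.1% of all start windows. The core without a full DRE was in 38.0% of members and 33.1% of other promoter peaks, a smaller difference. Ohler 7 was in 14.5% of members, 5.66% of other promoter peaks and 6.80% of all start windows. In the same order, Motif 1 was in 3.26%, 1.87% and 3.25%, and Ohler 6 in 1.32%, 0.418% and 1.43%. At least 1 of the DRE, Motif 1, Ohler 6 and Ohler 7 was near 27.8% of member summits, against 10.5% at other promoters. The E-box was in 18.8% of members, 13.7% of other promoter peaks and 13.4% of all start windows.

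Other elements went the opposite way. The GATA hexamer was in 35.4% (32.5 to 38.5) of members and 41.7% (39.9 to 43.4) of other promoter peaks, and in 30.5% of all start windows. The replicates gave 35.2% ± 0.0569 and 41.9% ± 1.59 (SD, n = 2). The GAGA repeat, bound by GAGA factor, was in 2.24% against 9.91%, and 4.69% of all start windows. The initiator (TCAGTY) was in 16.5% against 25.9% and the downstream promoter element (CGGACGT) in 0.305% against 2.22%, while the TATA box letters (TATAWAWR) were in 22.0% against 14.7%. The DRE letters do not hold a GATA hexamer. Base composition differed too: the median GC content of the windows was 37.3% in members and 43.8% at other promoters, and its part in these differences was not tested.

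**Figure D4:**
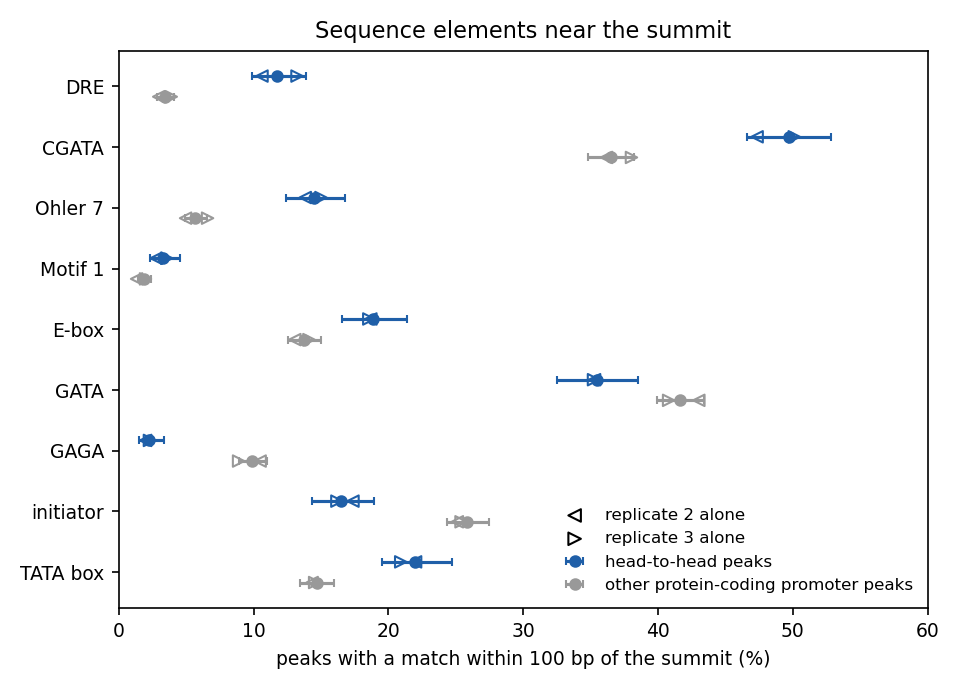
Share of peaks (%) with a match within 100 bp of the summit at head-to-head pairs (blue) and other protein-coding promoters (grey), with 95% Wilson intervals, and the value in each replicate alone (open triangles). The DRE, CGATA, Ohler 7, E-box and TATA box letters are more frequent at pairs, and GATA, GAGA and initiator letters less frequent.

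Pairs with and without a peak are nearer in base composition, with a median GC content of 33.8% and 32.8% in windows centred on the middle of the pair. A peak here means a head-to-head peak. Some pairs without one had another summit near a start, since only 1258 pairs had no summit within 500 bp of a start of either gene. In these windows the DRE was in 11.1% (9.31 to 13.3) of 970 pairs with a peak and 7.07% (5.95 to 8.39) of 1697 without. CGATA was in 47.7% against 37.6%, Ohler 7 in 10.5% against 5.54% and the E-box in 16.6% against 10.5%. The initiator was less frequent at pairs with a peak, at 14.8% (12.7 to 17.2) against 20.1% (18.3 to 22.1). Motif 1, at 3.30% against 2.83%, Ohler 6, at 2.16% against 2.36%, the TATA box letters, at 26.6% against 30.3%, and the downstream promoter element, at 0.309% against 0.354%, had overlapping intervals. The GATA hexamer, at 36.2% against 36.7%, and the GAGA repeat, at 2.06% against 2.47%, were in similar shares of both, with overlapping intervals. The sets were not matched for spacing. Pairs 501 to 1000 bp apart made up 672 of all 2667 pairs but 55 of the 970 with a peak. The E-box was near 46 of 167 member summits at 1 to 100 bp and 6 of 67 at 501 to 1000 bp. The DRE was near 25 and 3 of these, and near 41 of 291 at 301 to 500 bp. The part of spacing in the differences between the sets was not tested.

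CGATA was less frequent at the strongest members. It was in 39.8% of the 246 with the highest signal (356 and above) and in 55.3% of the 246 with the lowest, and the DRE was in 10.2% and 12.2%. Of the 488 members with the core, 373 (76.4%) had no full DRE. The GATA hexamer was in 36.6% and 37.0% of these 2 sets.

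The genes of the member pairs were shorter than unpaired genes with a peak. The 1780 genes had a median length of 2317.5 bp, against 4306.5 bp for unpaired genes with a peak and 2166 bp for all protein-coding genes. Of the 1780, 32.1% were named by a CG number alone. That share was 31.8% for unpaired genes with a peak, 35.9% for paired genes without a head-to-head peak and 43.7% for all protein-coding genes. The 3208 paired genes without a head-to-head peak were of similar length, with a median of 2284.5 bp. Some of the 3208 had another summit near a start, as 2311 paired genes had a summit within 500 bp and 1844 had a head-to-head peak.

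Gene groups were then counted among the genes in pairs, of which 1844 of 5052 (36.5%) had a head-to-head peak. The groups were defined by gene names. Of 19 groups with at least 10 paired genes, 5 had a Wilson interval wholly above 36.5% and 1 wholly below.

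Both kinds of ribosomal protein gene were in the first 5. Of the mitochondrial ribosomal protein genes, 58 of 73 were in pairs, and 33 of the 58 had a peak (56.9%, 44.1 to 68.8). The strongest were Art3/mRpS10 (1683) and mRpS23/CenG1A (1356). Of the cytosolic ribosomal protein genes, 54 of 91 were in pairs and 30 of the 54 had a head-to-head peak (55.6%, 42.4 to 68.0), led by RpS27/Nup37 (1581) and RpL32/CG7943 (1215). Counting any summit within 500 bp of a start, 51 of the 54 paired cytosolic genes and 34 of the 58 paired mitochondrial ones had a peak, against 45.7% of all paired genes. By the same count, 29 of 37 unpaired cytosolic genes and 2 of 15 unpaired mitochondrial ones had a peak, against 21.1% of all unpaired genes. The groups differed in strength as well, with a median signal of 667 over 39 cytosolic peaks and 231 over 34 mitochondrial ones. The range was 172 to 1581 in the first and 164 to 1683 in the second.

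The side of the summit also differed between these 2 groups, a comparison chosen after the values were seen. The summit was nearer the cytosolic ribosomal protein gene's start than the partner's in 33 of 39 peaks, at a median of 30 bp from it and 277 bp from the partner. Taking the strongest peak of each pair, it was nearer in 30 of 30, and 26 of them were within 50 bp of that start. The strongest candidates of replicate 2 alone gave 35 of 40, and those of replicate 3 alone 33 of 40. For mitochondrial ribosomal protein genes the summit was nearer their own start in 6 of 34 peaks, at a median of 164 bp from it and 97 bp from the partner. The replicates alone gave 9 of 32 and 8 of 35. Among the other groups with at least 10 such peaks, the share nearer the group's own gene ran from its lowest in RNA polymerase and general transcription factor genes (9 of 29, at medians of 168 bp from their own start and 98 bp from the partner) to its highest in GPI anchor, glycosylation and lipid enzymes (14 of 20). The smaller mitochondrial import and assembly group had 1 of 7.

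**Figure D5:**
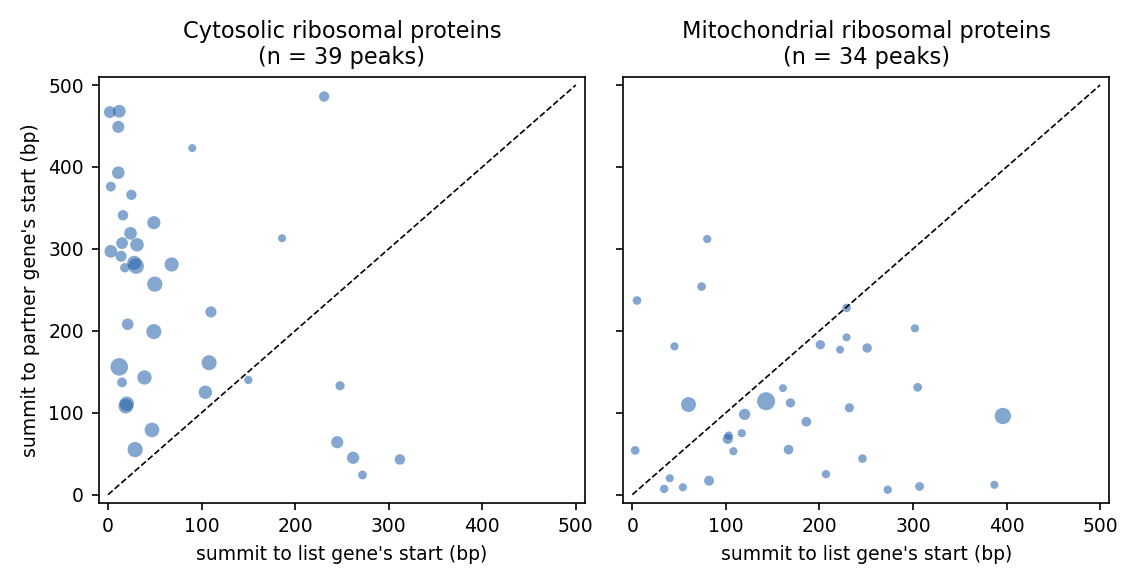
Distance (bp) from the summit to the start of the ribosomal protein gene (horizontal) and to that of its partner (vertical), for cytosolic (39 peaks) and mitochondrial (34 peaks) genes. Point area grows with signal, and the dashed line marks equal distance. Cytosolic peaks lie mostly above the line (33 of 39), and mitochondrial peaks mostly below it, with 6 of 34 nearer the ribosomal protein gene.

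The rest of these 5 groups were chromatin regulators, vesicle traffic and translocation genes, and GPI anchor, glycosylation and lipid enzymes. In that order, 27 of 49 (interval 41.3 to 68.1), 48 of 104 (36.9 to 55.7) and 20 of 37 (38.4 to 69.0) had a peak. The vesicle interval began just above the 36.5% of all paired genes. No allowance was made for the number of groups. The strongest chromatin pair was brm/Arl1 (1046), brm being the ATPase of a chromatin remodelling complex, followed by E(z)/Cnep1r2 (406), E(z) being a Polycomb histone methyltransferase. The strongest vesicle pairs were Fur1/Vps33B (748) and alphaCOP/CG13919 (498). The strongest enzyme pairs were Lon/PIG-F (1126), which couples a mitochondrial protease gene to one of GPI anchor synthesis, and Stt3A/bves (847), Stt3A being a subunit of oligosaccharyltransferase.

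The Wilson intervals of the other groups with 10 or more paired genes, histones apart, included the share of all paired genes. RNA polymerase and general transcription factor genes had a peak in 28 of 58, led by Brf/sds22 (597) and MED30/Rev1 (555), and ubiquitin and autophagy genes in 21 of 44, led by Irbp18/APP-BP1 (680) and Uba2/Cds (599). Nuclear pore and transport genes had one in 13 of 29, led by RpS27/Nup37 and Kap-alpha3/Son (1040). Aminoacyl-tRNA synthetase genes had one in 10 of 22, led by Lfg/AspRS (800) and SerRS/CG17260 (523), and translation factors in 12 of 29, led by eIF4EHP/CG18428 (986) and RpL28/eIF1 (800). Proteasome genes had one in 11 of 26, led by Slbp/Rpn2 (288) and RanBP3/Rpt5 (278), with no peak above 288. Splicing factors had one in 15 of 39, led by Oda/SmD3 (575) and Sf3a1/Irc (548), and RNA processing genes in 15 of 37, led by CG1275/Elp5 (860) and RpL34a/Trmt61 (836). A peak between genes of different groups counts in both. RpS27/Nup37, RpL28/eIF1 and RpL34a/Trmt61 also count among the cytosolic ribosomal protein genes. The RpL28/eIF1 summit was 49 bp from the RpL28 start and 332 bp from that of eIF1, and the RpS27/Nup37 summit was 156 bp from the Nup37 start.

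Respiratory chain and ATP synthase genes had a peak in 18 of 50, led by ND-ASHI/Fum1 (831) and Secp43/ND-B8 (410), and mitochondrial import and assembly genes in 6 of 12, led by CG7601/CIA30 (1042) and CG8229/Tom7 (507). Chaperone genes had one in 9 of 21, led by Hsc70-5/CG8531 (652) and Su(z)12/Pfdn6 (269). Cell cycle genes had one in 12 of 37, led by CG3226/Cdc7 (589) and lmgB/CG17834 (477), and DNA replication and repair genes in 11 of 43, led by dup/SRPK (520) and PCNA2/CG10366 (322). Pairs with both genes of 1 group and a peak were Taf10b/Taf10 (359), which encode related subunits of the general transcription factor TFIID from starts 45 bp apart, and Cog3/Sec5 (303), which act in Golgi and exocyst tethering.

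Histone genes were the group wholly below that share, with a peak in 2 of 87 paired genes. These were the variant genes His2Av, in the pair ball/His2Av (303), and His3.3A, in the pair CG14036/His3.3A (230). The replicated histone genes form a tandem array with 20 His2B/His2A and 22 His4/His3 head-to-head pairs, and 0 of either had even a candidate peak. The handling of reads from such repeated copies is not given in the sources used here. The Hsp70 genes formed 0 head-to-head pairs by these starts.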

How the data were processed

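ChIP-seq peak lists were analysed for 2 libraries, replicates 2 and 3. The authors deposited candidate peaks for each replicate and their pool (30000 lines each) and the reproducible list (7025 lines) made by the irreproducible discovery rate procedure, on dm6 per the labels. The signal column was used as the authors deposited it, with the peak caller and scaling not given in the sources used here, so depth is unknown and the number of peaks limits precision. The summit was the start plus the deposited offset. It was matched to protein-coding starts of Ensembl release 115 (BDGP6.54) within 500 bp, and pairs were matched up to 1000 bp. Symbols and coordinates of all 1780 genes were the same in RefSeq. Motifs were searched on both strands within 100 bp of the summit. Each replicate alone was its 7025 strongest candidates. Shares carry 95% Wilson intervals.

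Python 3.11.15, pandas 2.3.3 and numpy 2.4.6 were used; the pairing rule was tested on simulated starts. Named peaks were the 20 strongest that both replicates placed within 100 bp, up to 2 per gene group, pairs with both genes in a group, the 3 strongest with several summits, the strongest per arm, histone and Hsp70 pairs, and those at the limits. One pair that this rule names is not reported here. Where one pair led a group with both its peaks, the next pair was named. The members, gene groups and motifs were chosen with earlier results of these data known. Gene names wrongly caught by a group's name pattern were removed afterwards, 3 of them among ribosomal proteins after values were seen. Labels give 1 donor line, so the spread between replicates may be technical.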

Additional observations from a re-analysis of the deposited data

How the results depend on the processing

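Of 50 recomputed values, 27 stayed within the interval or 1.5 times the count, 21 moved and 2 changed side. A limit of 200 bp to each start gave 478 peaks, with 71.3% between the starts, a ratio of median signal to other promoter peaks of 1.07 (against 0.971) and a GATA difference of -3.67 points. At 1000 bp the share between was 58.0%, the ratio 0.977 and the DRE difference 6.07 points (against 8.30). The 3512 peaks with the higher signal gave 477 members, 70.6% between, a ratio of 1.01, a gene share difference of 13.1 points (against 24.6), a GATA difference of -9.44 points (against -6.22) and 99.4% overlapped by both replicates. Using the 5′ end of each gene alone gave 61.8% between, a ratio of 0.987 and a gene difference of 22.5 points. A motif window of 50 bp gave a DRE difference of 4.20 and a GATA difference of -4.53 points. An overlap of at least 50% of the peak gave 67.9% (against 82.5%), and that share has no value with 1 replicate left out. Leaving out a replicate gave 904 to 1014 members, 66.8% to 70.3% between, ratios of 0.990 to 0.998, gene differences of 22.6 to 24.7 points, DRE differences of 7.66 to 9.33 points and GATA differences of -7.73 to -5.57 points. The ratio of median signal therefore has no fixed side, while the gene, DRE and GATA differences kept theirs in each alternative run. The causes of these shifts were not tested. Signal with no stated scale or depth sets the limit on strength.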
